A study of Arabidopsis thaliana with 11 samples.

Results

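The genotype–drought interaction asks of each gene whether 5 days without water moved it by a different amount in BRL3ox roots than in WT roots. It was measured for every gene as (BRL3ox drought minus BRL3ox control) minus (WT drought minus WT control) on the log2 scale, from mRNA sequencing counts of all 11 of the 11 root samples. BRL3ox plants are Arabidopsis thaliana Col-0 carrying 35S:BRL3, a BRL3-GFP fusion driven by the constitutive 35S promoter and studied here as a single line, and WT plants are Col-0 without it. Plants of all groups were grown for 7 days on 0.5 MS agar without sucrose and for 16 days on soil under 16 h of light and 8 h of dark at 22 °C. Water was then withheld for 5 days from the drought groups, while the control groups were watered. Mature roots were washed out of the soil and frozen at an age of 28 days. The groups held 3 BRL3ox drought, 2 BRL3ox control, 3 WT drought and 3 WT control samples, which the study describes as biological replicates, and replicate 2 of BRL3ox control was not analysed here. Between 18610736 and 22817390 reads per sample were assigned to genes, and 20718 of the 33341 listed genes had enough counts to be tested.

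Brassinosteroids are steroid hormones that bind leucine-rich repeat receptor kinases at the plasma membrane. BRI1 is the receptor found in most cells, and BRL3 is a close homologue that is naturally enriched in vascular tissue. Drought also raises abscisic acid, which acts through PYR/PYL receptors, PP2C phosphatases and bZIP and NAC factors to switch on genes for late embryogenesis abundant (LEA) proteins, dehydrins and protective sugars. A positive interaction value therefore stands for a gene that was more activated, or less repressed, by drought in BRL3ox than in WT, and a negative value for the reverse.

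BRL3 itself was high in all BRL3ox samples. Its level in CPM (gene counts scaled to a common library size by TMM) was 2447, 3180 and 2935 in BRL3ox drought, 974 and 1652 in BRL3ox control, 44.8, 68.6 and 70.8 in WT drought and 62.1, 59.2 and 64.8 in WT control. No BRL3ox sample overlapped with any WT sample, and every BRL3ox drought sample lay above both BRL3ox control samples. Transcripts of BRL3 rose in drought by 1.12 ± 0.25 (log2 ± SE) in BRL3ox and differed by -0.01 ± 0.22 in WT. The interaction value of 1.13 ± 0.33 had an unadjusted p of 0.00575, above the limit of 0.0025. Of the 11 fits with 1 library left out, BRL3 passed this limit in 1, the fit without BRL3ox control replicate 3, where the value was 1.57 with an unadjusted p of 0.000901.

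In total, 197 genes, or 0.951% of those tested, were affected by the interaction at the unadjusted p of 0.0025 used by the study. They comprised 72 genes with a positive value (0.348%) and 125 with a negative value (0.603%). After Benjamini-Hochberg adjustment over all tested genes, 2 genes (0.00965%) remained under a false discovery rate (FDR) of 0.05 in edgeR's quasi-likelihood test, the amino acid permease AAP3 and the auxin synthesis gene YUC9, and the largest FDR among the 197 was 0.259. The median value over all tested genes was 0.01, with quartiles at -0.20 and 0.22. Among the 197 genes, 123 differed by more than 1 log2 unit between genotypes in their drought response and 32 by more than 2.

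**Figure D1:**
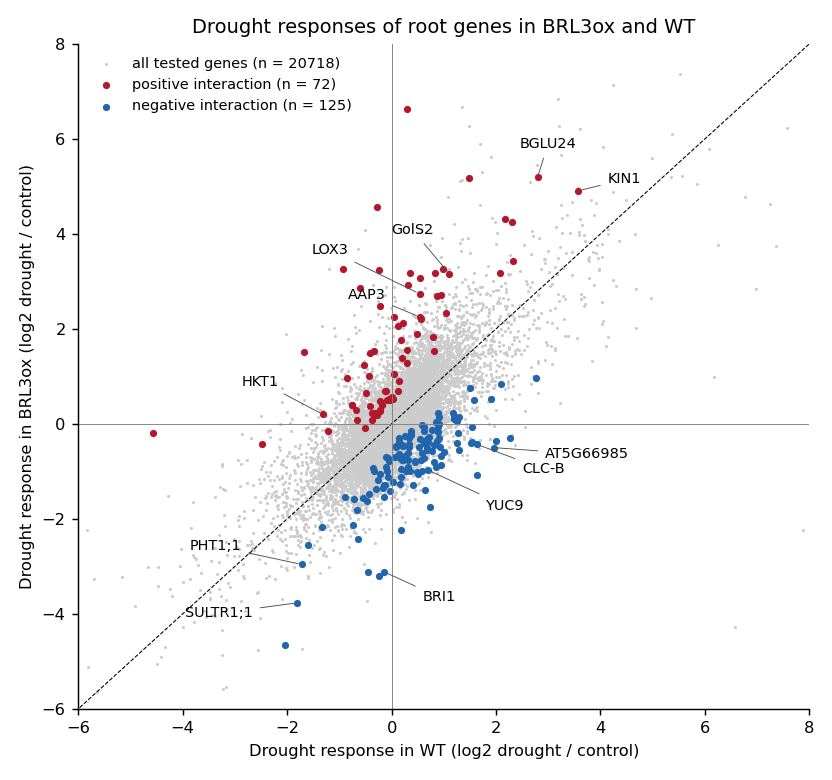
Drought response in WT (horizontal axis, log2 drought over control) and in BRL3ox (vertical axis, same scale) for the 20718 tested genes in grey, with the 72 positive interaction genes in red and the 125 negative ones in blue. The dashed line marks equal responses, and 13 genes lie outside the axes. Red points stand above the line, mainly where WT is near 0, and blue points stand below it, many where BRL3ox fell and WT was near 0 or rose.

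The affected genes were described by the drought response of each genotype, tested at an FDR under 0.05. That response was found for 21.6% of all tested genes in BRL3ox and for 19.1% in WT. Of the 72 positive genes, 41 responded in BRL3ox only, and all 41 rose. Another 17 responded in WT only, and all 17 fell, while 14 responded in both genotypes and in the same direction. Of the 125 negative genes, 55 responded in BRL3ox only, and all 55 fell. A further 42 responded in WT only, where all of them rose, 25 responded in both genotypes, of which 9 moved in opposite directions, and 3 responded in neither. The median drought response of the positive genes was 1.44 in BRL3ox and -0.04 in WT, and that of the negative genes was -0.68 in BRL3ox and 0.38 in WT. Genes were chosen by the difference of these responses, so the shared directions of genes responding in a single genotype largely follow from that choice.

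The same genes were then compared between genotypes within each condition. The difference of BRL3ox from WT changed sign between drought and control for 161 of the 197 genes, 51 positive and 110 negative. In drought, BRL3ox was higher than WT for 57 of the 72 positive genes, whereas in control it was lower for 66 of them. For the negative genes, BRL3ox was lower in drought for 124 of 125 and higher in control for 111 of 125. The genotype difference passed an FDR of 0.05 in drought for 25 positive and 77 negative genes, beside 4.75% of all tested genes. In control it passed for 20 positive and 7 negative genes, beside 0.796% of all tested genes. BRL3ox and WT samples did not overlap in drought for 163 of the 197 genes and in control for 145, beside 27.9% and 37.0% of all tested genes. These counts describe the pattern from the values that chose the genes and are not tests of their own.

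**Figure D2:**
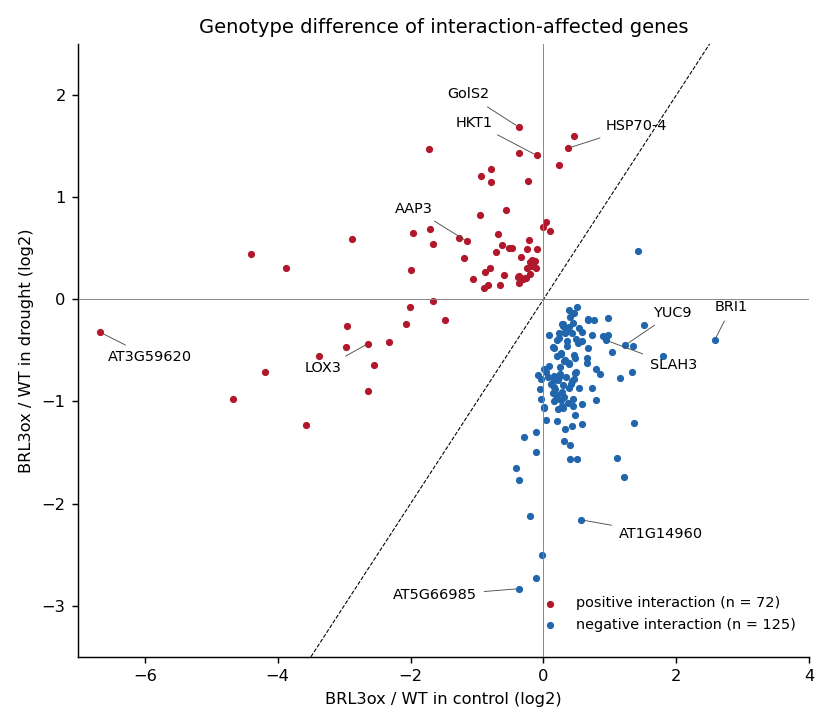
Difference between BRL3ox and WT in control (horizontal axis, log2) and in drought (vertical axis, log2) for the 72 positive (red) and 125 negative (blue) interaction genes, with a dashed line where both differences are equal. Most red points lie at the upper left and most blue points at the lower right, so the genotype difference has opposite signs in drought and in control for 161 genes. AT3G59620 had no count in either BRL3ox control sample, so its horizontal position depends on the prior count of the fit.

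AAP3 (AT1G77380, chromosome 1, 29074879 to 29077390, TAIR10), a plasma membrane importer of amino acids, had the lowest p among the positive genes. It reached 33.0, 27.4 and 27.9 CPM in BRL3ox drought, 6.71 and 5.65 in BRL3ox control, 19.0, 21.2 and 19.4 in WT drought and 14.4, 14.9 and 11.7 in WT control. The 4 groups did not overlap, and BRL3ox was the lowest group in control and the highest in drought. AAP3 rose in both genotypes, by 2.25 in BRL3ox and by 0.54 in WT, with an interaction value of 1.71 ± 0.19 (unadjusted p = 2.74e-06, edgeR quasi-likelihood FDR = 0.0284). It stayed under the unadjusted limit in each of the 11 fits with 1 library left out, with values between 1.60 and 1.84, and under an FDR of 0.05 in 2 of them. Of 7 tested members of the AAP family, 1 was affected and 5 had negative values, with a median of -0.30 (-0.58 without WT control replicate 3).

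YUC9 (AT1G04180, chromosome 1, 1104493 to 1106241), a flavin monooxygenase of the last step of auxin synthesis, had the lowest p of all genes. It stood at 8.29, 9.23 and 9.40 CPM in BRL3ox drought, 18.1 and 17.2 in BRL3ox control, 12.8, 12.3 and 11.7 in WT drought and 8.93, 6.60 and 7.13 in WT control. Both BRL3ox control samples were above every other sample, and the WT drought samples came next without overlap. YUC9 fell by 0.97 in BRL3ox and rose by 0.70 in WT, and the interaction value was -1.68 ± 0.18 (unadjusted p = 2.20e-06, edgeR quasi-likelihood FDR = 0.0284). Leaving out single libraries gave -1.81 to -1.59, past the unadjusted limit in all 11 fits and under an FDR of 0.05 in 3 of them. Among 8 tested auxin synthesis genes, 7 had negative values with a median of -0.56, and YUC9 was the only one affected. None of the 9 auxin carrier genes was affected, at a median of 0.08 that ran from -0.09 to 0.16 with 1 library left out.

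**Figure D3:**
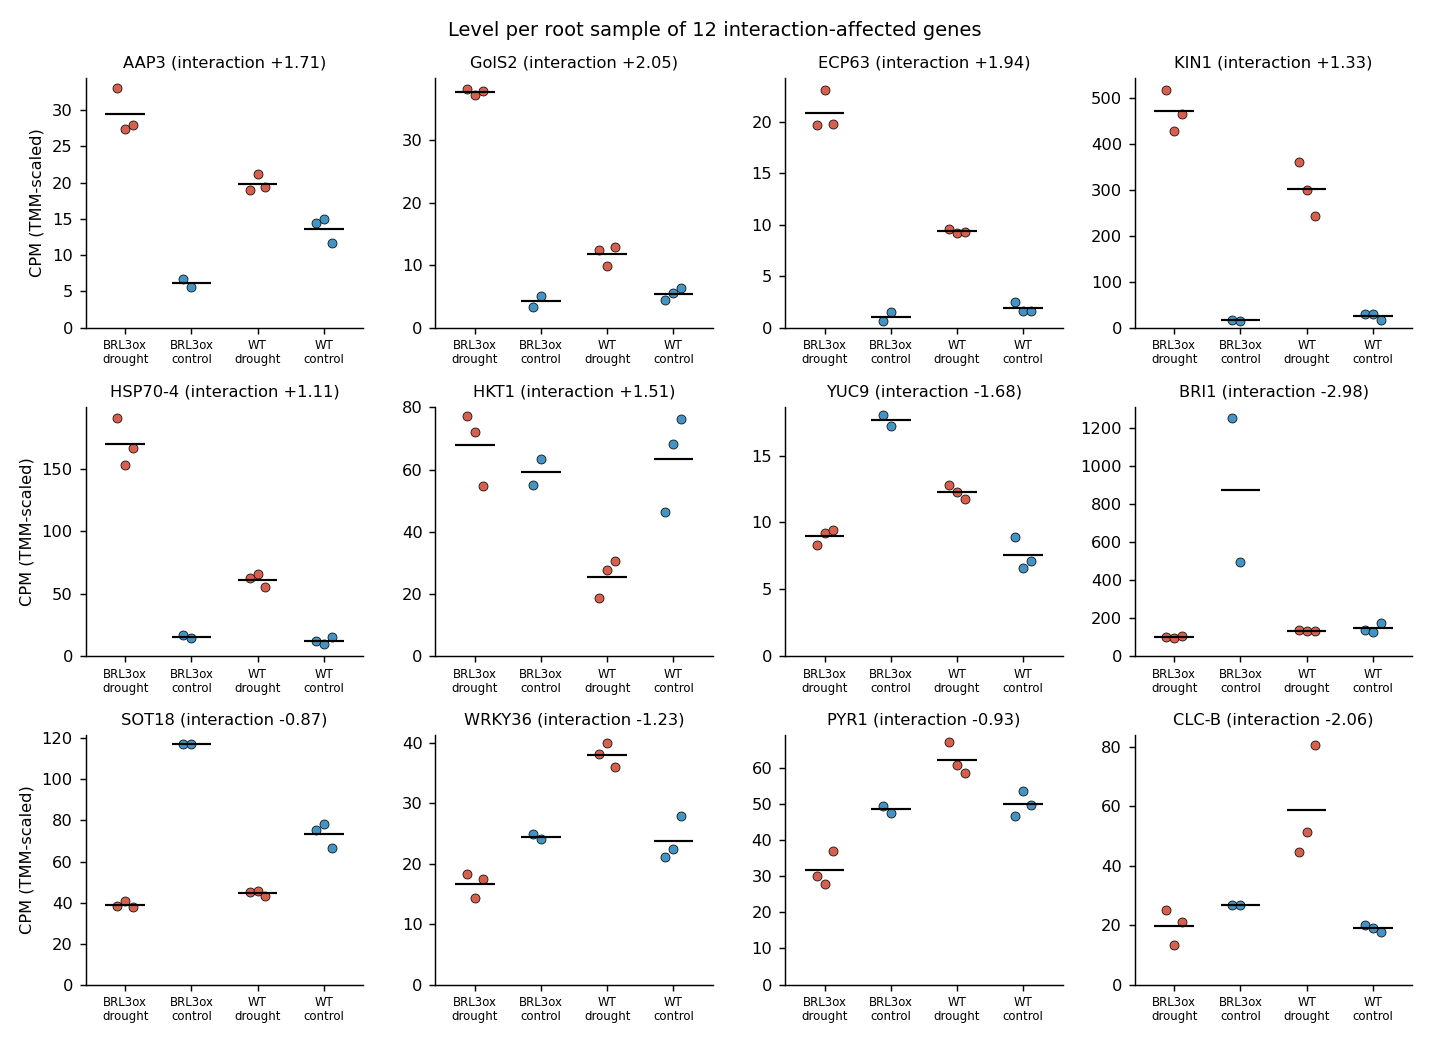
Level (CPM, vertical axis from 0) in each root sample of 12 interaction-affected genes, with BRL3ox drought, BRL3ox control, WT drought and WT control from left to right. Points are samples, bars are group means, red is drought and blue is control. AAP3, GolS2, ECP63, KIN1 and HSP70-4 were highest in BRL3ox drought, HKT1 was lowest in WT drought, YUC9, BRI1 and SOT18 were highest in BRL3ox control, and WRKY36, PYR1 and CLC-B were highest in WT drought.

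BRI1 (AT4G39400), the receptor after which the BRL genes are named, had the largest negative value among the 197 genes. Its level was 103, 95.6 and 104 CPM in BRL3ox drought, 1253 and 497 in BRL3ox control, 135, 133 and 130 in WT drought and 137, 130 and 173 in WT control. Both BRL3ox control samples lay above all others but differed widely from each other. BRI1 fell by 3.12 ± 0.29 in BRL3ox and differed by -0.14 ± 0.26 in WT, and the interaction value was -2.98 ± 0.39 (edgeR quasi-likelihood FDR = 0.0631). Without BRL3ox control replicate 1, the higher of the pair, the value was -2.16, and it passed the unadjusted limit in all 11 fits. The negative value rests on the high level in these 2 samples, and the source of their BRI1 reads was not tested. No stretch of 45 bases was shared between annotated BRI1 transcripts and those of any other gene, BRL3 included. Of 11 tested receptor and signalling genes of the pathway, BRI1 was the only one affected, and 8 had positive values (median 0.10, and 0.05 without WT control replicate 2).

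Other genes tied to brassinosteroids had mostly negative values. Of 14 tested synthesis and inactivation genes, 12 were negative with a median of -0.31, and BIA1, an acyltransferase that inactivates brassinosteroids, was affected (-1.01 ± 0.24). Of 13 tested bHLH factors of brassinosteroid growth control, 10 were negative with a median of -0.49, and IBH1 and AIF1, which both restrain cell elongation, were affected. Both affected values were negative, beside 0.603% of all tested genes. IBH1 stood at 5.81, 5.26 and 6.22 CPM in BRL3ox drought, 6.47 and 6.46 in BRL3ox control, 14.0, 13.0 and 17.0 in WT drought and 9.40, 7.08 and 7.19 in WT control. IBH1 rose by 0.90 in WT and differed by -0.16 ± 0.17 in BRL3ox, and the interaction value was -1.06 ± 0.22. AIF1 fell by 1.29 in BRL3ox and differed by -0.13 in WT. The median of the synthesis genes was -0.14 without WT drought replicate 1, and that of the bHLH factors was -0.90 without BRL3ox drought replicate 3 and -0.81 without WT control replicate 2. BIA1 kept the unadjusted limit in 4 of the 11 fits with a library left out, IBH1 in 9 and AIF1 in 2.

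Among 24 tested dehydration-responsive genes, 4 were affected and all 4 were positive, namely the NAC factor RD26, the dehydrin LTI30, the cold- and ABA-induced KIN1 and the LEA gene EM1. Of all tested genes, 0.348% were affected with a positive value. Drought raised 21 of the 24 in BRL3ox and 15 in WT, beside 12.1% and 11% of all tested genes, and the median response was 1.80 in BRL3ox and 1.21 in WT. The median interaction value was 0.34, with 17 members positive and 7 negative, beside 51.8% positive among all tested genes. This median was 0.19 without BRL3ox control replicate 1 or WT control replicate 2 and 0.51 without WT control replicate 3. KIN1 reached 517, 429 and 466 CPM in BRL3ox drought, 16.3 and 15.0 in BRL3ox control, 361, 301 and 243 in WT drought and 29.6, 29.1 and 16.9 in WT control. LTI30 reached 1192, 1210 and 1101 CPM in BRL3ox drought, 123 and 134 in BRL3ox control, 932, 1054 and 850 in WT drought and 221, 171 and 285 in WT control. For both genes BRL3ox samples lay below WT samples in control and above them in drought, without overlap. The value of KIN1 was 1.33 ± 0.31 and that of LTI30 was 1.11 ± 0.25.

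RD26 was higher in BRL3ox than in WT in drought, while the control groups overlapped. It stood at 44.7, 73.4 and 54.3 CPM in BRL3ox drought, 13.2 and 17.9 in BRL3ox control, 29.7, 26.0 and 21.4 in WT drought and 15.3, 15.8 and 24.2 in WT control. All BRL3ox drought samples exceeded all others, whereas WT drought and WT control overlapped. RD26 rose by 1.88 ± 0.27 in BRL3ox and differed by 0.48 ± 0.23 in WT (interaction 1.40 ± 0.35). EM1 was scarce in every group, at 0.575 to 4.21 CPM (interaction 2.20 ± 0.56). The 4 genes kept the unadjusted limit in only 2 to 4 of the 11 fits with a library left out, and their values there lay between 0.91 and 2.49.

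GolS2 (AT1G56600), a galactinol synthase that feeds the raffinose pathway, had the second lowest p among the positive genes. It reached 38.2, 37.2 and 37.9 CPM in BRL3ox drought, 3.26 and 5.15 in BRL3ox control, 12.5, 9.92 and 12.9 in WT drought and 4.36, 5.62 and 6.37 in WT control. The control groups overlapped, and every BRL3ox drought sample was above every WT drought sample. GolS2 rose by 3.16 in BRL3ox and by 1.11 in WT, with an interaction value of 2.05 ± 0.27 (edgeR quasi-likelihood FDR = 0.0631) and 1.77 to 2.43 with a library left out. It was the only affected gene of 7 tested in raffinose and galactinol metabolism (median 0.46, and 0.29 to 0.69 with 1 library left out). ECP63, which encodes a LEA protein, stood at 19.7, 23.1 and 19.8 CPM in BRL3ox drought, 0.671 and 1.48 in BRL3ox control, 9.64, 9.25 and 9.34 in WT drought and 2.52, 1.59 and 1.58 in WT control. It rose by 4.25 in BRL3ox and by 2.31 in WT (interaction 1.94 ± 0.37). GolS2 and ECP63 both passed the unadjusted limit in all 11 fits with a library left out. No gene of trehalose (18 tested, 14 positive, median 0.36) or proline metabolism (8 tested, 6 positive, median 0.11) was affected. With 1 library left out these medians ran from 0.18 to 0.48 and from 0.01 to 0.21. The lowest p of the trehalose list was close to the limit of 0.0025. It was that of TPPI, at 1.61 ± 0.43 (edgeR quasi-likelihood unadjusted p = 0.00332).

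Promoters of GolS2, RD26, LTI30 and EM1 are shown because ABA and cold act through known elements there. Such elements are the ABRE (ACGTGNC) bound by bZIP factors and the DRE core (CCGAC) bound by DREB factors. The genes shown were picked by hand and each holds a match, while KIN1 and ECP63 are not shown. Each sequence is the 250 bases before the annotated start, 5′ to 3′ on the strand of the gene, read from the RefSeq TAIR10.1 genome, with ABRE and DRE core matches on either strand in capitals. The windows are chr1:21207287-21207536 (plus strand) for GolS2, chr4:13709171-13709420 (minus strand) for RD26, chr3:18940393-18940642 (plus strand) for LTI30 and chr3:19214472-19214721 (plus strand) for EM1.
GolS2: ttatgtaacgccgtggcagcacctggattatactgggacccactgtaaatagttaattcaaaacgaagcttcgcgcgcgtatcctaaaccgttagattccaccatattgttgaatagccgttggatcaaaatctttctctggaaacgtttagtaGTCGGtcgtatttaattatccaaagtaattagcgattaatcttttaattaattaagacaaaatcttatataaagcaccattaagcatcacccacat
RD26: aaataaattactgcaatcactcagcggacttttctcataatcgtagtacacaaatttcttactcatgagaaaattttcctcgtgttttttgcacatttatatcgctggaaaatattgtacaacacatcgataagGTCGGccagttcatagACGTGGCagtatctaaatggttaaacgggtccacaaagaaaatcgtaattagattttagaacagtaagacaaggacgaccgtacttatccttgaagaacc
LTI30: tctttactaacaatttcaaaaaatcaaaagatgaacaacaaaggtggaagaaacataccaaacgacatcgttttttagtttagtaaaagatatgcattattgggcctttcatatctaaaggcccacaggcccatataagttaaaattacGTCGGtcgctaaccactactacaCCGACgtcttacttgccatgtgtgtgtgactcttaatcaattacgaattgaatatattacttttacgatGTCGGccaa
EM1: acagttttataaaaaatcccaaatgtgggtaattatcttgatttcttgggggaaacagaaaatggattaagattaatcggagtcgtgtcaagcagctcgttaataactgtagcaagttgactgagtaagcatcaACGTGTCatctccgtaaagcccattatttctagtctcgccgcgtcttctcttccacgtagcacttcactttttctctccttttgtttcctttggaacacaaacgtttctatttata

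RD26 held 1 ABRE match and 1 DRE core, EM1 1 ABRE, GolS2 1 DRE core and LTI30 3 DRE cores. KIN1 held neither ABRE nor DRE core in its window. An ABRE stood in 12 of the 72 positive genes (16.7%), in 6 of the 125 negative genes (4.80%) and in 9.61% of the 20674 promoters of tested genes that could be read. A G-box (CACGTG) stood in 9.72% of positive, 1.60% of negative and 7.40% of all promoters. The DRE core stood in 18.1% of positive, 15.2% of negative and 12.7% of all promoters. The letters CGTGNG, with any base at N, were taken here for the brassinosteroid-response element BRRE and share CGTG with ABRE and G-box. This loose pattern stood in 20.8% of positive, 12% of negative and 13.0% of all promoters. These shares describe letters in a window and were not tested.

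ABA perception genes had mostly negative values. Of 18 tested ABA receptor and PP2C genes, 13 were negative with a median of -0.22 (-0.10 without BRL3ox control replicate 1), and the receptor PYR1 was affected. PYR1 stood at 30.0, 27.8 and 36.9 CPM in BRL3ox drought, 49.5 and 47.4 in BRL3ox control, 67.0, 60.9 and 58.4 in WT drought and 46.6, 53.7 and 49.6 in WT control. The control groups overlapped, and in drought the BRL3ox samples were the lowest of all and the WT samples the highest of all. PYR1 fell by 0.62 in BRL3ox and differed by 0.31 ± 0.11 in WT (interaction -0.93 ± 0.16, edgeR quasi-likelihood FDR = 0.170), and it kept the unadjusted limit in all 11 fits. None of 10 tested genes of ABA synthesis and catabolism was affected (median 0.17, and 0.08 to 0.27 with 1 library left out).

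**Figure D4:**
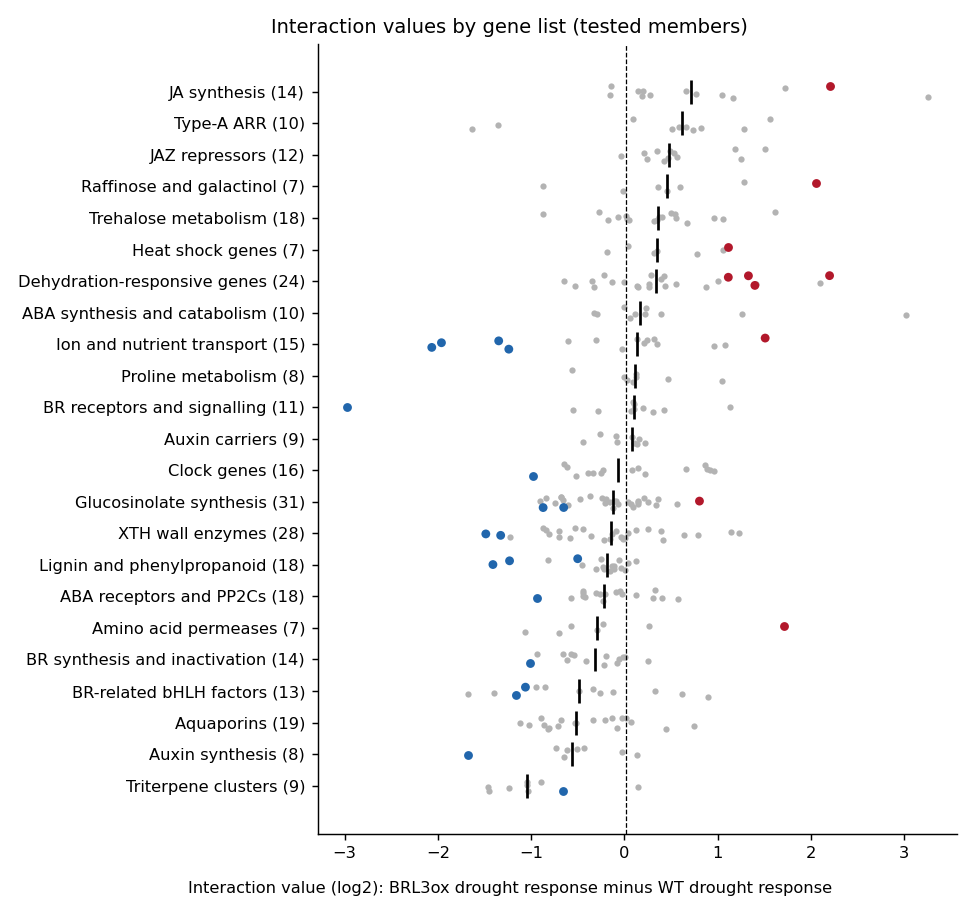
Interaction value (log2, horizontal axis) of each tested member of 23 gene lists, ordered by median. Grey points did not pass the unadjusted p of 0.0025, red and blue points passed it with a positive and a negative value, black bars are list medians, the dashed line is the median of all tested genes (0.01), and numbers in brackets are tested members. Dehydration genes hold 4 red points, ion and nutrient transporters 4 blue and 1 red, and the triterpene list has the lowest median at -1.04.

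Transport genes of the root gave 5 affected members among 15 tested, 1 positive and 4 negative, beside 0.348% and 0.603% of all tested genes. Over all 15 members, 8 values were positive and 7 negative. The list median was 0.13, and it ran from -0.11 to 0.22 with 1 library left out. HKT1, which withdraws sodium from the xylem sap, fell by 1.31 in WT and differed by 0.20 ± 0.24 in BRL3ox. Its level was 77.2, 72.0 and 54.6 CPM in BRL3ox drought, 55.2 and 63.3 in BRL3ox control, 18.6, 27.7 and 30.5 in WT drought and 46.3, 68.2 and 76.1 in WT control. Only the WT drought samples stood apart, below all others (interaction 1.51 ± 0.33). CLC-B, a chloride channel family member, stood at 25.2, 13.4 and 20.9 CPM in BRL3ox drought, 26.8 and 26.7 in BRL3ox control, 44.7, 51.4 and 80.4 in WT drought and 20.0, 19.2 and 17.6 in WT control. The WT drought samples were the highest, and the value was -2.06 ± 0.36.

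The anion channel gene SLAH3 also rose in WT drought, by 0.78 (interaction -1.35 ± 0.27). The uptake transporters PHT1;1 for phosphate and SULTR1;1 for sulfate fell in both genotypes and fell further in BRL3ox. SULTR1;1 was scarce in drought, at 0.281 to 0.646 CPM in BRL3ox and 0.727 to 1.51 CPM in WT (interaction -1.96 ± 0.46). PHT1;1 stood at 7.75, 8.21 and 7.15 CPM in BRL3ox drought, 57.4 and 62.6 in BRL3ox control, 15.6, 15.2 and 8.96 in WT drought and 41.4, 40.5 and 49.5 in WT control. The BRL3ox samples lay below the WT samples in drought and above them in control (interaction -1.24 ± 0.26). Of the 45-base stretches of PHT1;1, 44.1% also occur in PHT1;2 or PHT1;3, so its counts may depend on how shared reads were assigned. Of the 5 transporter genes, CLC-B passed the unadjusted limit in all 11 fits with a library left out, SLAH3 in 10, PHT1;1 in 9, HKT1 in 7 and SULTR1;1 in 2. None of 19 aquaporin genes was affected, while 15 were negative with a median of -0.52, and 10 of the 19 fell in BRL3ox and 6 in WT, beside 9.49% and 8.11% of all tested genes. The aquaporin median was -0.15 without WT drought replicate 1 and -0.35 without BRL3ox control replicate 3.

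Glucosinolate genes gave 3 affected members among 31 tested, 1 positive and 2 negative, beside 0.348% and 0.603% of all tested genes. SOT18, which adds the sulfate group in glucosinolate synthesis, stood at 38.3, 40.6 and 38.0 CPM in BRL3ox drought, 117 and 118 in BRL3ox control, 44.9, 45.5 and 43.2 in WT drought and 75.2, 78.1 and 66.8 in WT control. BRL3ox was above WT in control and below it in drought, without overlap (interaction -0.87 ± 0.11, edgeR quasi-likelihood FDR = 0.0631). SOT18 overlaps a gene on the same strand, AT1G74088, but shares no 45-base stretch with another gene. MYB28, the main activator of aliphatic glucosinolate genes, fell in both genotypes, by 1.54 in BRL3ox and by 0.89 in WT. The S-oxygenase gene FMOGS-OX5 was positive (0.81 ± 0.18), and 19.3% of its 45-base stretches belong also to an overlapping gene on the same strand, AT1G04933. Over the 31 genes the median was -0.12, with 19 negative and 12 positive, and it ran from -0.31 without BRL3ox drought replicate 3 to -0.02 without BRL3ox drought replicate 2. With a library left out, SOT18 passed the unadjusted limit in all 11 fits, FMOGS-OX5 in 6 and MYB28 in 3.

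Of 18 tested lignin and phenylpropanoid genes, 15 were negative with a median of -0.19, and the hydroxylases C3H1 and FAH1 and the laccase LAC7 were affected. All 3 affected values were negative, beside 0.603% of all tested genes. The list median was -0.36 without WT drought replicate 1 and -0.04 without WT drought replicate 3. FAH1 stood at 17.4, 13.9 and 12.8 CPM in BRL3ox drought, 22.8 and 27.6 in BRL3ox control, 54.6, 36.1 and 47.6 in WT drought and 27.7, 30.9 and 42.5 in WT control, with BRL3ox drought the lowest group (interaction -1.23 ± 0.29). LAC7 rose by 0.93 in WT and differed by -0.48 ± 0.23 in BRL3ox. LAC7 kept the unadjusted limit in 7 of the 11 fits with a library left out, FAH1 in 4 and C3H1 in 2. XTH13 and XTH17, which cut and rejoin xyloglucan in the wall, were affected among 28 tested XTH genes, beside 0.603% negative among all tested genes. Their values were -1.33 and -1.49, and they kept the limit in 5 and 3 of those fits. Of the 28, 18 were negative and 10 positive (median -0.14, and -0.28 to -0.09 with 1 library left out). In the triterpene clusters, 8 of 9 genes were negative with a median of -1.04. Drought raised 1 of the 9 in BRL3ox and 7 in WT, beside 12.1% and 11% of all tested genes. The acyltransferase THAA2 was affected (-0.66 ± 0.15) and kept the limit in 4 of those fits. Unlike most of the list in WT, THAA2 fell in drought, by 0.99 in BRL3ox and by 0.33 in WT. Marker genes of root cell types differed in sign. The endodermal markers had a median of -0.69 (-0.42 without WT drought replicate 1), with 5 of 7 negative and none affected, and their summed level was 87.1 to 120 CPM in BRL3ox drought, 170 and 178 in BRL3ox control, 129 to 187 in WT drought and 152 to 203 in WT control. All 3 root hair markers were negative (median -0.53). Suberin genes, also of the endodermis, had a median of 0.05 with 3 positive and 2 negative, and -0.20 to 0.24 with 1 library left out. All 3 phloem markers were positive (median 0.26, and 0.21 to 0.42 with 1 library left out). Xylem and root tip markers had medians of 0.07 and -0.05, whose sign changed in some of those fits. No marker of these lists was affected. In whole roots, fewer cells of a type and less RNA per cell cannot be told apart, and the part of endodermal tissue in these values was not tested.

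Among stress and signalling genes of other lists, the chaperone HSP70-4 was affected, at 191, 153 and 167 CPM in BRL3ox drought, 16.9 and 14.6 in BRL3ox control, 62.7, 65.6 and 55.1 in WT drought and 11.9, 9.52 and 15.2 in WT control. It rose in both genotypes, by 3.44 in BRL3ox and by 2.32 in WT, and BRL3ox exceeded WT in drought without overlap (interaction 1.11 ± 0.24). HSP70-4 was the only affected gene of 7 tested heat shock genes (median 0.35, and 0.24 to 0.75 with 1 library left out). LOX3, a lipoxygenase of jasmonate synthesis, stood at 364, 340 and 465 CPM in BRL3ox drought, 47.2 and 69.3 in BRL3ox control, 314, 539 and 726 in WT drought and 365, 209 and 516 in WT control. The BRL3ox control samples were the lowest, and the other groups overlapped (interaction 2.21 ± 0.54). LOX3 was the only affected gene of 14 in jasmonate synthesis (median 0.72), and it kept the unadjusted limit in 2 of the 11 fits with a library left out. None of 12 JAZ repressors was affected (median 0.48, 11 positive). Without BRL3ox control replicate 1 these medians were 0.41 and 0.27, and without BRL3ox drought replicate 3 that of jasmonate synthesis was 0.43. By the median, BRL3ox was below WT in both conditions for both lists. The median difference of BRL3ox from WT was -1.61 in control and -0.40 in drought for jasmonate synthesis. For the JAZ genes it was -0.83 in control and -0.43 in drought.

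Touch and wound marker genes moved the same way as the jasmonate lists. They had a median of 0.70 (0.37 without WT control replicate 3), with 7 of 8 positive and none affected. Their summed level was 5943 to 6564 CPM in BRL3ox drought, 2423 and 3053 in BRL3ox control, 5742 to 8168 in WT drought and 3185 to 6452 in WT control. Their part in the jasmonate values was not tested. GRP8, an RNA-binding protein under control of the circadian clock, stood at 378, 424 and 449 CPM in BRL3ox drought, 696 and 726 in BRL3ox control, 647, 684 and 744 in WT drought and 619, 578 and 591 in WT control. Only the BRL3ox drought samples were low (interaction -0.98 ± 0.15, edgeR quasi-likelihood FDR = 0.0880). It was the only affected gene of 16 tested clock genes (median -0.07, and -0.13 to 0.10 with 1 library left out). None of 10 type-A response regulators of cytokinin signalling was affected (median 0.62, and 0.17 without WT control replicate 2).

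Several of the strongest negative values belonged to genes outside the lists. AT5G66985, which encodes an uncharacterized protein, stood at 3.20, 2.17 and 2.48 CPM in BRL3ox drought, 4.26 and 3.16 in BRL3ox control, 15.6, 18.0 and 22.5 in WT drought and 5.93, 3.59 and 4.85 in WT control. It rose by 1.97 in WT drought and differed by -0.50 ± 0.26 in BRL3ox, with an interaction value of -2.47 ± 0.34. The transcription factor gene WRKY36 stood at 18.3, 14.3 and 17.5 CPM in BRL3ox drought, 24.9 and 24.1 in BRL3ox control, 38.1, 40.0 and 36.0 in WT drought and 21.1, 22.4 and 27.9 in WT control. It fell by 0.55 in BRL3ox and rose by 0.67 in WT, and the groups overlapped in control but not in drought (interaction -1.23 ± 0.18). AT3G27390 (-0.75), the exocyst subunit gene EXO70D1 (-1.02) and AT1G14960 (-2.72) likewise fell in BRL3ox and rose in WT. The Dof factor gene AT4G24060 (-0.80) and the glucosyltransferase gene UGT76B1 rose in WT by 0.84 and 0.72, against differences of 0.05 and -0.28 in BRL3ox. The MYB factor gene RAX2 (-0.98) fell in BRL3ox by 0.71. All of these genes passed the unadjusted limit in each of the 11 fits with a library left out.

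Most other leading positive genes were lowest in BRL3ox control. The beta-glucosidase gene BGLU24 reached 296, 156 and 167 CPM in BRL3ox drought, 4.98 and 6.20 in BRL3ox control, 147, 124 and 112 in WT drought and 15.9, 11.8 and 27.5 in WT control. Drought raised it in both genotypes, and the BRL3ox control samples were the lowest of all (interaction 2.40 ± 0.49). SCPL19, a carboxypeptidase-like acyltransferase gene, rose by 3.27 in BRL3ox and by 0.99 in WT (interaction 2.28 ± 0.45). The lectin gene AT3G59620 had no count in either BRL3ox control sample and 0.354 to 0.972 CPM in all other samples, so no size is given for it. The non-coding RNA AT5G40348 stood at 0.0479 and 0.0422 CPM in BRL3ox control and at 0.797 to 4.10 CPM elsewhere. The F-box gene HWS rose by 0.70 in BRL3ox and differed by -0.14 ± 0.10 in WT (interaction 0.83 ± 0.15). AT1G27900 (0.57) and AT1G28690 (1.26) likewise rose in BRL3ox alone, whereas AT3G15650 (0.98) and AT1G63720 (1.15) fell in WT alone. AT3G15650 was lowest in WT drought, and for AT1G63720 the BRL3ox control and WT drought samples overlapped. HWS passed the unadjusted limit in all 11 fits with a library left out. The others did so in 9 or 10 and lost it without BRL3ox control replicate 1, replicate 3 or either.

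The number of affected genes depended on single control libraries. It was 61 without BRL3ox control replicate 3, 95 without BRL3ox control replicate 1, 105 without WT control replicate 1 and 302 without WT control replicate 2, and between 135 and 257 when any of the other 7 libraries was left out. Without WT control replicate 2 the split turned, to 194 positive and 108 negative genes. With 1 BRL3ox control sample left, that sample is assumed to vary like the other groups. The sign of no affected gene changed in any of these fits, and 37 of the 197 genes, 4 positive and 33 negative, passed the unadjusted limit in all of them. Photosynthesis genes, which mark shoot tissue, differed widely between libraries. Their summed level was 131 to 180 CPM in BRL3ox drought, 227 and 60.6 in BRL3ox control, 74.2 to 315 in WT drought and 56.6 to 626 in WT control, with WT control replicate 2 the highest. All 18 tested members had positive values and none was affected, their median was 0.73, and it was -0.57 without WT control replicate 2. The part of these genes in the counts was not tested.

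**Figure D5:**
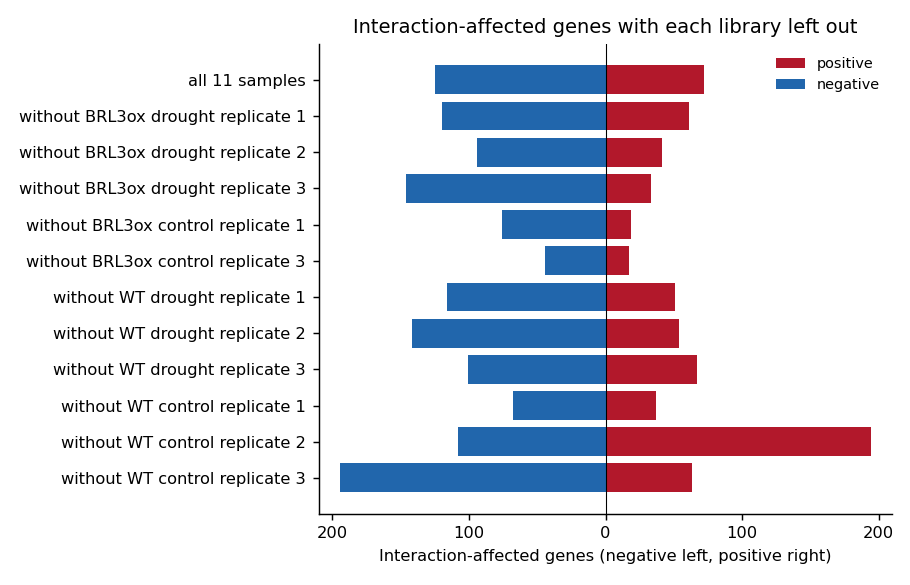
Number of interaction-affected genes (horizontal axis, negative values to the left in blue, positive values to the right in red) in the fit of all 11 samples and in 11 fits with 1 library left out. Negative genes outnumber positive ones in every fit except the one without WT control replicate 2, and both numbers are lowest without BRL3ox control replicate 3.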

How the data were processed

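Polyadenylated RNA of 11 root samples was sequenced from stranded TruSeq libraries. According to the processing notes the authors checked reads with FastQC, aligned them to TAIR10 with HISAT2 2.1.0 and counted them per gene with HTSeq 0.9.1, and the deposited values are raw counts. HTSeq summary classes, 10.5% to 12.9% of all counts, were left out. Genes were filtered with filterByExpr, normalised by TMM and fitted with edgeR 4.0.16 (R 4.3.3), quasi-likelihood, with 1 coefficient per group and 7 residual degrees of freedom. Genes were called at an unadjusted p under 0.0025, the limit in the study's methods, and at an FDR under 0.05. Replicates of a group differed by more than sampling noise.

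The genes described in detail were BRL3, the 12 lowest p of each sign and every list member past the limit, 48 genes in all. The 31 lists (409 genes, 408 in the files) and the comparisons were chosen with earlier results of these data known. Lists were counted and not tested. Alternatives were RLE size factors, 2 other filters, robust moderation, the likelihood ratio test, DESeq2 1.42.0, a replicate block and each library left out. Fits were tested on simulated data. Promoters and 45-base stretches were read from the RefSeq TAIR10.1 genome and annotation, since no promoter table was used here. Of the 48 genes, 6 shared such a stretch with another gene, and 8 overlapped a gene on the other strand, among them AAP3, BRL3 and CLC-B. Another 2 overlaps were on the same strand, those of SOT18 and FMOGS-OX5. The strand setting of the counting is not given in the sources used here.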

Additional observations from a re-analysis of the deposited data

Results flagged for a closer look

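The drought responses of BRL3ox and WT differed at an edgeR quasi-likelihood FDR under 0.05 for 2 genes. YUC9 had an interaction value of -1.68 and moved in opposite directions, lower in drought in all 3 BRL3ox samples than in both BRL3ox control samples and higher in drought in all 3 WT samples than in all 3 WT control samples. AAP3 had an interaction value of 1.71 and was higher in drought than in control in every sample of both genotypes, with the larger difference in BRL3ox. With 1 library left out, the FDR ran between 0.0139 and 0.159 for YUC9 and between 0.0128 and 0.182 for AAP3.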

How the results depend on the processing

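In the fits of the alternatives listed in the processing, the 197 affected genes kept their sign wherever they were tested. Their number was 197 with 2 under an FDR of 0.05. It was 394 (153 positive, 241 negative) with the likelihood ratio test and 435 (173 positive, 262 negative) with DESeq2, and 202 and 214 genes then passed an FDR of 0.05. Without a filter on low counts 5 genes passed an FDR of 0.05. RLE factors gave 209 genes, no filter 223, at least 10 counts in every sample 194 and robust moderation 194. With 1 library left out the total ran from 61 to 302, positive genes from 17 to 194, negative genes from 44 to 194 and genes under an FDR of 0.05 from 0 to 7. Positive genes numbered 41 without BRL3ox drought replicate 2 and 33 without BRL3ox drought replicate 3, and negative genes 194 without WT control replicate 3. At an unadjusted p of 0.05, 2242 genes (10.8%) passed.

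A fit with the replicate number as a block gave 266 genes, 124 positive and 142 negative, with 8 under an FDR of 0.05. The numbers were not taken to pair the samples, since the labels give them no shared origin and the correlation did not exceed 0.1 in every pair. Deviations from group means correlated at a mean of 0.15 over 15 pairs with the same number (-0.09 to 0.41, 11 pairs over 0.1) and at -0.07 over 30 pairs with different numbers, and 8 of 11 samples correlated best with a sample of their own number. Because these deviations cancel within each group, the mean of the different-number pairs is bound to that of the same-number pairs and is no separate comparison. Of the 48 genes described, 6 lost the unadjusted limit under the block (RD26, EM1, MYB28, XTH13, SULTR1;1 and FAH1), and BRL3 passed it (1.16, unadjusted p = 0.00102), as it did with the likelihood ratio test and DESeq2 but not in the other fits of all 11 samples. With 1 library left out, 18 of the 48 kept it in every fit. The group of 2 BRL3ox control samples limits every value here, and genes near 1 CPM rest on about 20 reads per sample.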

Other observations

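Further affected genes that no list covered were chosen after their values were seen. Of 61 tested genes with a WRKY symbol, 4 were affected and all 4 were negative, beside 0.603% of all tested genes, while 32 of the 61 were positive (median 0.01). Besides WRKY36, the WRKY factor genes WRKY29 (-1.80 ± 0.36), WRKY47 (-1.24 ± 0.22) and WRKY65 (-0.95 ± 0.20) were affected. WRKY29 stood at 4.60, 4.75 and 5.33 CPM in BRL3ox drought, 8.91 and 8.90 in BRL3ox control, 9.64, 11.7 and 13.0 in WT drought and 4.46, 4.56 and 8.93 in WT control. Its BRL3ox samples were lower in drought than in control and its WT samples higher. Of 18 tested genes annotated as dirigent proteins, 2 were affected, both negative, beside 0.603% of all tested genes, and 16 were negative (median -0.65). These 2, AT4G11210 (-1.61 ± 0.29) and AT5G42500 (-1.61 ± 0.29), shared the pattern of WRKY29, with AT5G42500 at 12.9, 9.32 and 15.5 CPM in BRL3ox drought, 18.9 and 19.1 in BRL3ox control, 30.0, 21.4 and 31.2 in WT drought and 12.3, 12.9 and 15.8 in WT control.

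PSY1R, a receptor kinase gene related to BRI1 that takes part in signalling by the growth peptide PSY1, stood at 10.5, 9.50 and 9.96 CPM in BRL3ox drought, 28.5 and 24.6 in BRL3ox control, 20.2, 21.5 and 19.0 in WT drought and 19.7, 26.8 and 15.2 in WT control. All BRL3ox drought samples were below all other samples (-1.39 ± 0.25). HAM1, a GRAS factor gene of meristem maintenance, was likewise lowest in BRL3ox drought, at 26.4, 25.9 and 29.4 CPM, against 41.8 and 42.4 in BRL3ox control (-0.77 ± 0.13). The ethylene synthesis gene ACS11 stood at 0.180, 0.138 and 0.234 CPM in BRL3ox drought, 0.815 and 0.971 in BRL3ox control, 5.20, 3.58 and 4.91 in WT drought and 3.89, 2.39 and 5.83 in WT control. It was lower in BRL3ox than in WT in both conditions, without overlap, and the interaction value was -2.43 ± 0.58. WRKY29, WRKY47, AT4G11210, AT5G42500, PSY1R and HAM1 passed the unadjusted p of 0.0025 in all 11 fits with a library left out, whereas ACS11 did so in 3.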
